A study of Mus musculus with 15 samples.

Results

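The genes of the proteasome were followed across 4 activation states of cultured mouse microglia. Members were all genes in the deposited table whose symbol opens with Psma, Psmb, Psmc, Psmd, Psme, Psmf or Psmg and a digit, which gave 48 of 11201 genes. By role they comprised 3 inducible and 3 constitutive catalytic genes of the 20S beta ring, 4 other beta ring genes, 7 genes of the 20S alpha ring and 17 of the 19S cap. A further 3 encode the PA28 alpha and beta activator, 3 other activators or an inhibitor, and 7 assembly chaperones. Psmc3ip matches the pattern through its name only: it encodes a meiotic recombination factor that is not a proteasome subunit.

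The cells were microglia-like cells grown from C57BL/6 embryonic stem (ES) cells in a defined medium, N2, which all groups shared. They were left untreated (6 libraries) or exposed for 24 h to LPS (lipopolysaccharide, from the bacterial outer membrane) at 500 ng/ml with IFNg (interferon gamma) at 20 ng/ml, to IL4 (interleukin 4) at 100 U/ml, or to TGFb (transforming growth factor beta) at 50 ng/ml, with 3 libraries for each stimulus. LPS and IFNg were given only together, so the effect of each cannot be told apart from that of the other. The labels do not say whether the libraries came from separate cultures, so p-values cover only how far these libraries scatter, and that scatter could be technical. No genetic change is named in any group, and the study's title gives its aim as describing pro- and anti-inflammatory states.

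The 26S proteasome degrades proteins that carry ubiquitin chains. Its 20S core is a barrel of alpha and beta rings with the catalytic sites inside, and the 19S cap recognises, unfolds and feeds in the substrate. Interferon gamma is known to induce Psmb8, Psmb9 and Psmb10, whose products replace the constitutive catalytic subunits Psmb5, Psmb6 and Psmb7 in newly built cores (the immunoproteasome), and Psme1 and Psme2, which form the PA28 activator. Both alter the peptides made for presentation on class I molecules.

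Values are normalized read counts, that is reads divided by 1 factor per library. Depth, here the reads counted in the 11201 genes of the table, was between 2682564 and 18676181 per library, and overlapped between the groups. Of 14 markers of microglia and macrophages, 12 were measured, and their summed value was 23130 to 24730 in untreated libraries, 21040 to 24750 with LPS+IFNg, 26220 to 26840 with IL4 and 29630 to 31340 with TGFb. Cx3cr1 and Tmem119, which mark resident microglia, were near the floor of 1 in all groups but TGFb (Cx3cr1 at most 7.90 and Tmem119 at most 11.2, against at least 33.8 and at least 74.7 with TGFb). Other lists were thinly measured: 2 of 6 astrocyte, 1 of 4 oligodendrocyte, 1 of 4 endothelial and 1 of 7 neuronal markers, and none of the 6 stem cell or 5 fibroblast markers; the remaining ones were not analysed here. The 1 neuronal marker measured, Syn1, was at 165 to 223 in untreated libraries, 45.2 to 62.8 with LPS+IFNg, 201 to 258 with IL4 and 92.9 to 121 with TGFb. The 2 astrocyte markers, Aldh1l1 and Slc1a2, summed to 39.6 to 80.9, 99.95 to 110.9, 72.7 to 108.8 and 65.7 to 85.4 in that order, and the endothelial marker Pecam1 was at 1 to 1.89, 6.02 to 15.8, 1.41 to 2.39 and 1 to 2.32. Syn1 was thus lower with LPS+IFNg than untreated, and the astrocyte sum and Pecam1 were higher, without overlap. The oligodendrocyte marker Mbp overlapped between untreated (12.1 to 22.4) and LPS+IFNg (13.6 to 15.5). The part of other cells in the results below was not tested. In such bulk RNA, fewer cells of a type and less RNA per cell cannot be told apart.

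Shares of reads are given as percentages of the reads counted in all genes of the deposited table. The 48 genes together took 0.628% to 0.645% in the untreated libraries, 0.795% to 0.846% with LPS+IFNg, 0.593% to 0.613% with IL4 and 0.540% to 0.548% with TGFb. No library of one group fell inside the range of another. The 6 genes Psmb8, Psmb9, Psmb10, Psme1, Psme2 and Psme2b held 0.0342% to 0.0356% of the same total in untreated cells, 0.159% to 0.177% with LPS+IFNg, 0.0356% to 0.0387% with IL4 and 0.0280% to 0.0293% with TGFb. The other 42 genes held 0.593% to 0.611%, 0.636% to 0.669%, 0.556% to 0.574% and 0.511% to 0.518% in the same order.

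All 48 genes passed the filter on low values and were tested with limma on log2(value + 1), with Benjamini-Hochberg adjustment over 11138 genes and calls at an adjusted p below 0.05. With LPS+IFNg, 29 of the 48 rose and 4 fell, where 29.5% of all tested genes rose and 29.4% fell. The members' median log2 difference was 0.25, beside 0.00 over all tested genes. The IL4 comparison had 3 members higher (9.89% of all genes) and 2 lower (7.33% of all genes), with a median of -0.04 beside 0.00. With TGFb, 1 member rose and 30 fell, where 24.1% of all genes rose and 23.4% fell, and the median was -0.21 beside 0.01. The 3 comparisons share the same untreated libraries.

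**Figure D1:**
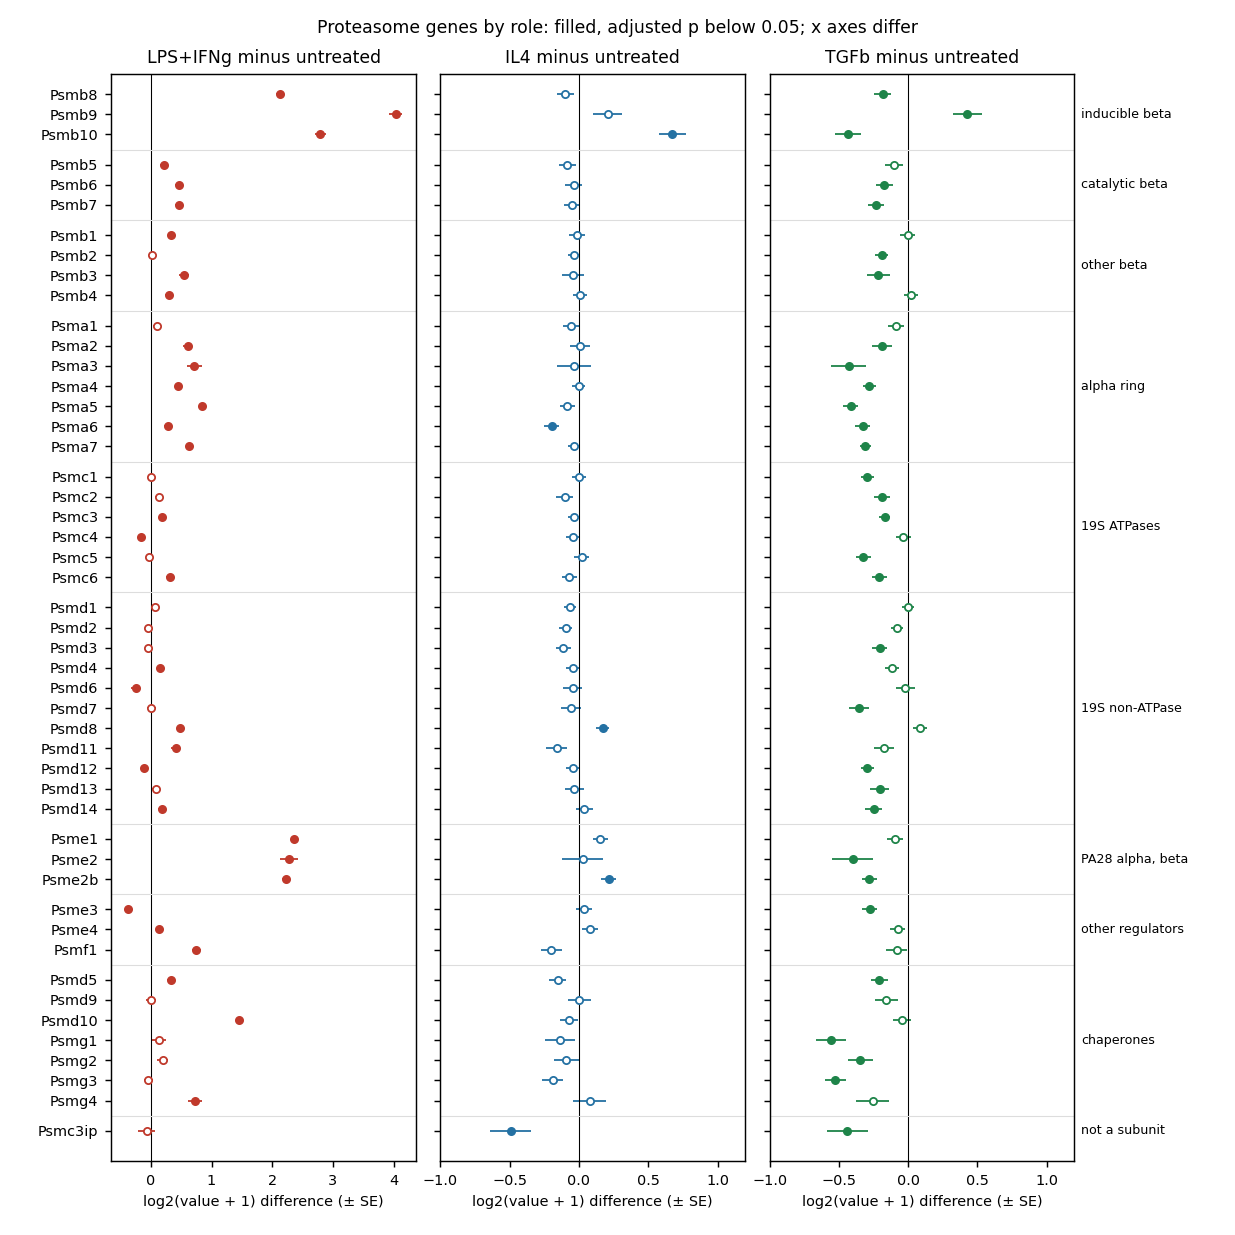
Difference in log2(value + 1) from untreated (x axis, ± SE from limma) for each of the 48 genes (y axis, grouped by role), with 1 panel per stimulus; x axes differ. Filled points passed an adjusted p of 0.05. With LPS+IFNg the 6 inducible catalytic and PA28 genes lie between 2.13 and 4.04, while with TGFb most filled points lie below 0.

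Among all members, the immunoproteasome genes Psmb9 and Psmb10 had the largest log2 differences with LPS+IFNg. Psmb9 (beta-1i, also called LMP2) was at 70.05 to 99.2 in the 6 untreated libraries with a median of 86.3, at 1246, 1388 and 1540 with LPS+IFNg, at 96.8, 94.6 and 98.6 with IL4, and at 112, 115 and 111 with TGFb. The LPS+IFNg libraries and the TGFb libraries all lay above every untreated library, and the IL4 libraries lay within the untreated range. The mean rose 16.5-fold with LPS+IFNg (84.1 ± 10.7, SD, n = 6, to 1391 ± 147, n = 3; log2 difference 4.04 ± 0.10, SE; limma adjusted p = 2.51e-16). With TGFb Psmb9 was the 1 member that rose (113 ± 2.36; log2 difference 0.43, limma adjusted p = 0.00255), and with IL4 its difference of 0.21 did not pass (limma adjusted p = 0.198).

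Psmb8 (beta-5i, LMP7) was the most abundant of the 3 by its mean value per kb of transcript in each group but differed least with LPS+IFNg. Its values were 820.5 to 933 untreated (median 848), 3708, 3766 and 3830 with LPS+IFNg, 777, 759.5 and 879 with IL4, and 784, 677 and 821 with TGFb. Only the LPS+IFNg libraries stood clear of the untreated range. The rise was 4.38-fold (log2 difference 2.13 ± 0.06, limma adjusted p = 1.26e-15). The TGFb difference of -0.18 (limma adjusted p = 0.0210) was lost without TGFb replicate 2 (-0.10, limma adjusted p = 0.214) and without the 3 libraries of lowest depth (-0.09, limma adjusted p = 0.277).

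Psmb10 (beta-2i, MECL1) was the inducible catalytic gene that moved with each stimulus. It was at 210.1 to 292.5 untreated (median 272), at 1761, 2086 and 1630 with LPS+IFNg, at 415, 428 and 409 with IL4 and at 189.8, 207 and 182 with TGFb. All 3 stimulated groups lay outside the untreated range, IL4 and LPS+IFNg above it and TGFb below it. Psmb10 rose 6.96-fold with LPS+IFNg (log2 difference 2.79 ± 0.09, limma adjusted p = 1.13e-14). It also rose with IL4 (0.67 ± 0.09, limma adjusted p = 5.45e-05) and fell with TGFb (-0.44 ± 0.09, limma adjusted p = 0.000879). In the direct comparison IL4 exceeded TGFb by 1.11 on the log2 scale (limma adjusted p = 1.72e-07).

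The constitutive partners moved far less. Psmb5 (beta-5, the chymotrypsin-like site) was at 1309 to 1599 untreated (median 1509), at 1749, 1785 and 1572 with LPS+IFNg, at 1322, 1372 and 1458 with IL4 and at 1338, 1438 and 1324 with TGFb. LPS+IFNg replicate 3 lay within the untreated range, and the rise of 0.21 ± 0.06 (limma adjusted p = 0.00751) was lost when libraries were rescaled to the same total (0.09, limma adjusted p = 0.313) or quantile normalized (0.12, limma adjusted p = 0.178). Psmb6 (beta-1, the caspase-like site) was at 3031 to 3457 untreated (median 3175), at 3966, 4306 and 4947 with LPS+IFNg, at 3222, 3045 and 3086 with IL4 and at 2853, 3058 and 2620 with TGFb. Psmb7 (beta-2, the trypsin-like site) was at 1913 to 2028 (median 1995), at 2498, 2586 and 3168, at 1937, 1852 and 1959, and at 1717, 1660 and 1709 in the same order. For both genes every LPS+IFNg library exceeded every untreated library, with log2 differences of 0.46 each. With TGFb, Psmb7 fell by 0.23 on the log2 scale with no overlap, and Psmb6 by 0.17, a call that was lost without the libraries of lowest depth and in 3 of the leave-one-out fits. These were the fits without untreated replicate 1, TGFb replicate 1 and TGFb replicate 3, and the smallest of their differences was -0.12 (limma adjusted p = 0.201).

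**Figure D2:**
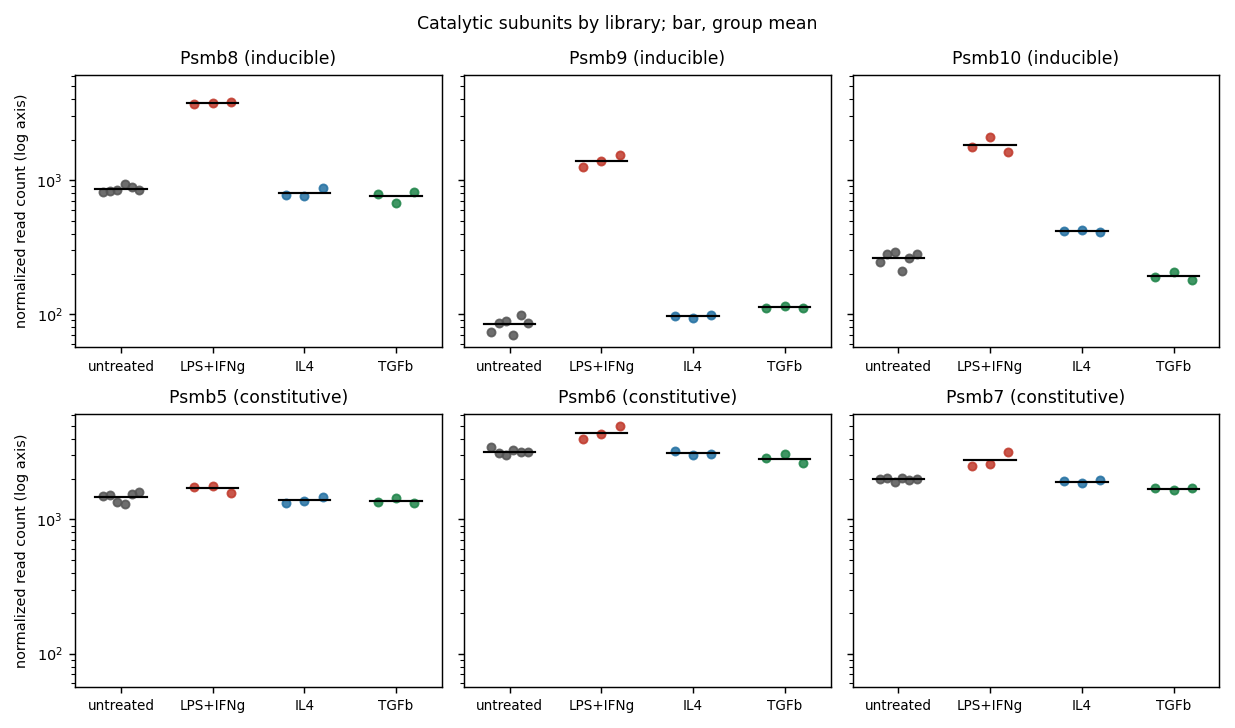
Normalized read count (y axis, log scale, the same in all panels) of the 3 inducible catalytic genes (top) and the constitutive genes they replace (bottom), by group (x axis); points are libraries and bars are group means. The LPS+IFNg libraries stand above all untreated libraries in every panel but Psmb5, and the IL4 libraries stand above them for Psmb10.

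Each library gives a ratio of an inducible gene to the constitutive gene it replaces, with both values divided by the length of the longest coding transcript. The Psmb8 to Psmb5 ratio was 0.326 ± 0.0382 (SD, n = 6) untreated, 1.23 ± 0.103 with LPS+IFNg, 0.321 ± 0.0139 with IL4 and 0.308 ± 0.0432 with TGFb (n = 3 each). The Psmb9 to Psmb6 ratio was 0.0156 ± 0.00247, 0.186 ± 0.00335, 0.0183 ± 0.000561 and 0.0235 ± 0.00136. The Psmb10 to Psmb7 ratio was 0.117 ± 0.0150, 0.598 ± 0.131, 0.193 ± 0.0102 and 0.101 ± 0.00853. Only Psmb8 thus exceeded its partner per kb, in each of the LPS+IFNg libraries (1.17 to 1.35). These levels depend on the transcript chosen for the length, while differences between groups do not.

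The log2 ratio was compared with untreated by an exact two-sided permutation test, adjusted over 9 comparisons; 6 against 3 libraries allow 84 splits and no p below 0.0119. With LPS+IFNg the ratio rose by 1.92 (Psmb8 to Psmb5), 3.58 (Psmb9 to Psmb6) and 2.33 (Psmb10 to Psmb7), each with an adjusted exact p of 0.0214. The Psmb10 to Psmb7 ratio rose by 0.73 with IL4 (adjusted exact p = 0.0214), and the Psmb9 to Psmb6 ratio by 0.60 with TGFb (adjusted exact p = 0.0214). The other 4 comparisons did not pass: Psmb8 to Psmb5 with IL4 (-0.02, adjusted exact p = 0.893) and with TGFb (-0.08, adjusted exact p = 0.576), Psmb9 to Psmb6 with IL4 (0.24, adjusted exact p = 0.179) and Psmb10 to Psmb7 with TGFb (-0.21, adjusted exact p = 0.230). Every ratio called was already at the smallest p that the splits allow, so leaving out a library of its own stimulus, which raises that limit, lost the call while the difference kept its direction. For Psmb9 to Psmb6 with TGFb the p without TGFb replicate 3 also lay above the limit (adjusted exact p = 0.129). Without the 3 libraries of lowest depth, which likewise leaves fewer splits, every ratio call was lost, and each difference kept its direction.

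**Figure D3:**
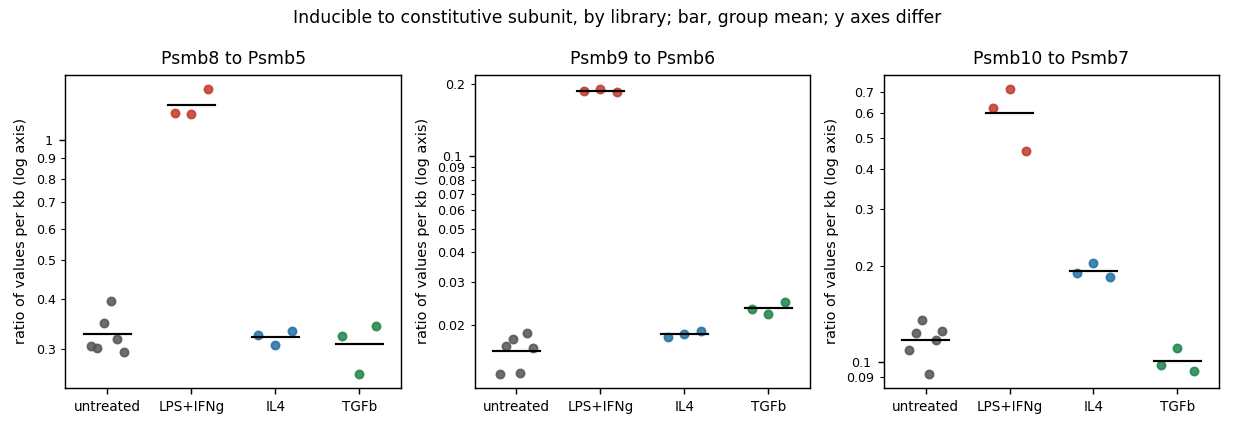
Ratio of the inducible to the constitutive catalytic gene, each per kb of transcript (y axis, log scale; axes differ), by group (x axis); points are libraries and bars are group means. LPS+IFNg stands apart in all 3 panels, IL4 in the Psmb10 to Psmb7 panel and TGFb in the Psmb9 to Psmb6 panel.

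Psmb8 and Psmb9 lie close together in the class II region of the major histocompatibility complex, next to the peptide transporter genes. In GENCODE M21 (GRCm38, the build named mm10) Psmb9 spans chr17:34181987-34187764 on the minus strand, and Psmb8 spans chr17:34197721-34201454 on the plus strand. Psmb9 and the transporter gene Tap1 point away from each other from RefSeq starts 226 bases apart, so the promoter windows of both share 275 bases. The GENCODE span of Psmb9 begins upstream of its RefSeq start (34187764 against 34187330). Their GENCODE exons share 212 bases on opposite strands, and whether counting used strand is not given in the sources used here. Reads from those bases cannot be assigned to either gene. Tap1 was at 309 ± 23.9 untreated, 6186 ± 1321 with LPS+IFNg, 262 ± 15.2 with IL4 and 360.2 ± 17.0 with TGFb, and the part of such reads in the Psmb9 values was not tested. Psmb8 shares 498 exon bases with the antisense gene Gm20496, which was not analysed here, and Psmb7 shares 405 with Nek6 on the opposite strand.

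The promoters of Psmb8 and Psmb9 are shown because both genes rose together from 1 locus, that of Psme1 because it is the activator gene with an interferon motif, and that of Psmb5 as a constitutive contrast. They are RefSeq windows (GRCm38.p6), 250 bases before the start and 25 from it, at chr17:34197945-34198219 (plus strand), chr17:34187306-34187580 (minus), chr14:55578244-55578518 (plus) and chr14:54617971-54618245 (minus), written 5′ to 3′. The Psmb8, Psmb9 and Psme1 windows lie inside the GENCODE spans of these genes, so they hold no sequence from before the GENCODE starts. Capitals mark matches to 2 motifs on either strand.
Psmb8: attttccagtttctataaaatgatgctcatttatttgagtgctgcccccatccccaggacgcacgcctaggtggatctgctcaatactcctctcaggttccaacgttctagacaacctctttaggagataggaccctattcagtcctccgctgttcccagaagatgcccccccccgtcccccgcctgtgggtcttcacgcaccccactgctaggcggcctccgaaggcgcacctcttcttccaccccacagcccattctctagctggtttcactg
Psmb9: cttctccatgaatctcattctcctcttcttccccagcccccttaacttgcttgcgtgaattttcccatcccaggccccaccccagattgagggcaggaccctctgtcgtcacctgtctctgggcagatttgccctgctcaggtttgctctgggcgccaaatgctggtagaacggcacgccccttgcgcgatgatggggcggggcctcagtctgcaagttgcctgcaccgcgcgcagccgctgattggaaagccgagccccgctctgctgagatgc
Psme1: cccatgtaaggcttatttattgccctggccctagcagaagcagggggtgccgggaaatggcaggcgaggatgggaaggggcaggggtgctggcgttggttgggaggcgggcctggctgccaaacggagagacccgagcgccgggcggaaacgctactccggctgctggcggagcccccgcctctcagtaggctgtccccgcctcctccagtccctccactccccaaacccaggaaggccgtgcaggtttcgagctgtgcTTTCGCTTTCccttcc
Psmb5: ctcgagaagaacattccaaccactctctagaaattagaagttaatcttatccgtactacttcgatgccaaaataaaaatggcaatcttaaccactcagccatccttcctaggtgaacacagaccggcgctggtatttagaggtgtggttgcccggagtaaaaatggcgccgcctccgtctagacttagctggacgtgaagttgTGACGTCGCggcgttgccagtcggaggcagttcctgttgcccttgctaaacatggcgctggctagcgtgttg

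The motifs were the core of the interferon-stimulated response element (ISRE), which is GAAA, any 2 bases and GAAA, and the core of the antioxidant response element, TGACNNNGC, a type of site used by NFE2L1 and NFE2L2. They were found in 3.44% and 12.4% of all 32851 RefSeq promoter windows of 300 bases, and in 3.1% and 14.4% of the 10882 windows of genes in the table. Windows were found for 41 of the 48 members, among them the 6 inducible and PA28 genes. Psme1 held an ISRE match at bases 10 to 19 (base 1 is the start), and the Psmb8 and Psmb9 windows held no match to either. Among the 6 genes 1 thus held an ISRE match and 0 the antioxidant core, and among the other 35 members 4 and 6 did. Psmb5 was 1 of those 6, with its match at bases -47 to -39, as were Psmb6, Psmc6, Psmd12, Psmd9 and Psme4. A looser NF-kB pattern, GGG, any 5 bases and CC, matched 50.8% of all windows and 67.6% of those of genes in the table, 4 of the 6 genes and 20 of the 35, and is not marked above. A match is a run of letters and not a measured site.

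The PA28 activator genes rose by nearly equal amounts with LPS+IFNg. Psme1 (PA28 alpha) was at 464 to 534 untreated (median 508), at 2635, 2569 and 2522 with LPS+IFNg, at 520.5, 559 and 597 with IL4 and at 495, 457 and 457 with TGFb. It rose 5.13-fold with LPS+IFNg (log2 difference 2.36 ± 0.06, limma adjusted p = 1.06e-16), while the IL4 difference of 0.15 (limma adjusted p = 0.0701) and the TGFb difference of -0.09 (limma adjusted p = 0.184) did not pass. Its neighbour on chromosome 14, Psme2 (PA28 beta), was at 61.6 to 92.7 (median 77.7) untreated, 332, 434 and 371.5 with LPS+IFNg, 95.0, 62.1 and 82.4 with IL4 and 66.2, 53.4 and 56.0 with TGFb. Psme2b is a nearly identical copy on chromosome 11, listed in GENCODE without an intron. Its values were 761 to 866 (median 807), 3820, 3671 and 3759, 1002, 871 and 931, and 635, 711 and 641 in that order. In the values listed for Psme2 only the LPS+IFNg libraries stood clear of the untreated range. In those listed for Psme2b the IL4 libraries also lay above it and the TGFb libraries below it. How reads were split between the copies is not known, so this is not shown to be a difference between the genes.

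The 2 beta genes cannot be separated with confidence. Their transcripts are identical at 789 of 794 aligned bases (99.4%), and the assignment of such reads is not given in the sources used here. Psme2b also shares 41 of its 837 exon bases with 9930111J21Rik1, a gene on the same strand. The part of reads from those bases in its values was not tested. Psme2 took 6.65% to 10.9% of the sum of both in every library. The sum was 882 ± 28.7 untreated, 4129 ± 23.3 with LPS+IFNg, 1015 ± 82.0 with IL4 and 721 ± 37.5 with TGFb. Fitted in place of Psme2, the sum rose with IL4 by 0.20 on the log2 scale (limma adjusted p = 0.0106). Listed alone, Psme2b rose with IL4 by 0.22 (limma adjusted p = 0.00944) and fell with TGFb by 0.28 (limma adjusted p = 0.000325). Its IL4 call was lost without IL4 replicate 1 (0.16, limma adjusted p = 0.0814) and when libraries were rescaled to the same total (0.15, limma adjusted p = 0.0588). Psme2 alone differed by -0.40 with TGFb (limma adjusted p = 0.0334), a call lost without untreated replicate 1 or 5, without TGFb replicate 2 or 3, and without the 3 libraries of lowest depth (-0.38, limma adjusted p = 0.101).

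The other regulators of the core did not share this pattern. Psme3 encodes PA28 gamma, a nuclear activator that works without ubiquitin, and had the lowest log2 difference of all members with LPS+IFNg. It was at 1077 to 1165 untreated (median 1152), 958, 902 and 793 with LPS+IFNg, 1086, 1216 and 1203 with IL4 and 923, 965 and 931 with TGFb. The LPS+IFNg and TGFb libraries all lay below the untreated ones, with differences of -0.37 (limma adjusted p = 1.51e-05) and -0.28 (limma adjusted p = 0.000473). Psmf1, which encodes the proteasome inhibitor PI31, rose from 460.1 ± 23.8 to 778 ± 111 with LPS+IFNg (0.75, limma adjusted p = 1.27e-07). Psme4, the gene of the activator PA200, rose by 0.13 with LPS+IFNg (limma adjusted p = 0.0484), and this call was lost under both alternative scalings and in 10 of the 15 leave-one-out fits.

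In the constitutive 20S core, 12 of 14 genes rose with LPS+IFNg (29.5% of all genes), with a median log2 difference of 0.45. With TGFb, 10 of 14 fell (23.4% of all genes), with a median of -0.20. The alpha ring, which forms the gate of the barrel, had 6 of 7 genes higher with LPS+IFNg, led by Psma5 (499 ± 20.2 to 899 ± 43.2; log2 difference 0.85), Psma3 (0.72), Psma7 (1659 ± 28.8 to 2567 ± 46.9; 0.63) and Psma2 (0.61). Psma3 was uneven among the LPS+IFNg libraries, at 496, 469 and 819 in replicates 1, 2 and 3. Of the same ring, 6 of 7 fell with TGFb, among them Psma3 (-0.43), Psma5 (-0.42) and Psma6 (-0.33). Psma1 was the 1 alpha gene that passed in neither (0.10 and -0.09, limma adjusted p = 0.151 and 0.211). Among the non-catalytic beta genes, Psmb3 had the largest rise with LPS+IFNg (0.54), Psmb1 rose by 0.33 and Psmb4 by 0.29, and Psmb2 did not pass (0.01, limma adjusted p = 0.835). Psmb1 and Psmb4 did not pass with TGFb (-0.00 and 0.02, limma adjusted p = 0.958 and 0.773), while Psmb2 (-0.19) and Psmb3 (-0.22) fell.

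In the 19S cap, 6 of 17 genes rose with LPS+IFNg, 3 fell and 8 did not pass, where 29.5% of all genes rose and 29.4% fell; the share that rose was near that of all genes. The median was 0.07 beside 0.00 over all genes. Of its 6 ATPases, which unfold the substrate, Psmc6 (0.31) and Psmc3 (0.19) rose and Psmc4 fell (-0.16), the last a call lost without LPS+IFNg replicate 2. Of the 11 non-ATPase genes, Psmd8, a lid subunit, had the largest rise (0.47), followed by Psmd11 (0.41). The gene of the deubiquitinase of the lid, Psmd14 (0.19), and that of a ubiquitin receptor, Psmd4 (0.16), rose by less, and with Psmb5, Psmc3 and Psme4 they lost the call under both alternative scalings. Psmd6, another lid subunit, was at 823 to 910.5 untreated (median 857), at 779.5, 781.5 and 615 with LPS+IFNg, at 775, 863 and 861 with IL4 and at 850.5, 830.2 and 862 with TGFb. All LPS+IFNg libraries lay below the untreated ones (-0.25, limma adjusted p = 0.00364), replicate 3 by the widest margin. Psmd12, also of the lid, fell by 0.12 (limma adjusted p = 0.0448), a call lost in 11 of the 15 leave-one-out fits. The large scaffold genes Psmd1 and Psmd2 did not pass with any of the 3 stimuli.

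With TGFb, 10 of the 17 cap genes fell (23.4% of all genes), with a median of -0.19. They included 5 of the 6 ATPases, from Psmc5 (-0.32) to Psmc3 (-0.17), and the non-ATPase genes Psmd7 (-0.35), Psmd12 (-0.29), Psmd14 (-0.25), Psmd3 (-0.21) and Psmd13 (-0.20). The differences were small, and the largest fall of any member was that of Psmg1 (-0.56). Without the 3 libraries of lowest depth (untreated replicates 1 and 4, TGFb replicate 2), 21 of the 30 genes that fell with TGFb kept the call; Psma2, Psma3, Psmb3, Psmb6, Psmb8, Psmc3ip, Psmd3, Psmd13 and Psme2 lost it. With 1 library left out, 23 (without TGFb replicate 3) to 32 members were lower.

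Among the assembly chaperones, Psmd10 stood out with LPS+IFNg. It encodes gankyrin, which helps to assemble the base of the cap. Its values were 331 to 411 untreated (median 356), 1003, 951 and 1017 with LPS+IFNg, 344, 332 and 351 with IL4 and 339, 350.0 and 353 with TGFb. The lowest LPS+IFNg library (951) lay far above the highest of all others (411), and the rise was 2.75-fold (log2 difference 1.46 ± 0.06, limma adjusted p = 6.11e-13). Psmg4 (0.73) and Psmd5 (0.32) also rose, and the other 4 chaperone genes did not pass. That made 3 of 7 higher, where 29.5% of all genes rose.

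The chaperones that pair the first alpha subunits were lowest with TGFb. Psmg1 was at 176.5 to 264 untreated (median 235), 258, 258 and 238 with LPS+IFNg, 198, 198 and 229 with IL4 and 143, 160.1 and 162 with TGFb. Psmg3 was at 264 to 301 (median 292), 260.3, 288 and 291, 244, 265 and 247, and 219, 198.5 and 182 in the same order. For both, the 3 TGFb libraries lay below every other library, with differences of -0.56 ± 0.11 (limma adjusted p = 0.000373) and -0.52 ± 0.07 (limma adjusted p = 1.19e-05). Psmg2 (-0.34) and Psmd5 (-0.21) fell as well, so that 4 of the 7 chaperone genes were lower (23.4% of all genes). Psmg4, whose TGFb libraries overlapped the untreated ones, did not pass (-0.25, limma adjusted p = 0.0866).

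**Figure D4:**
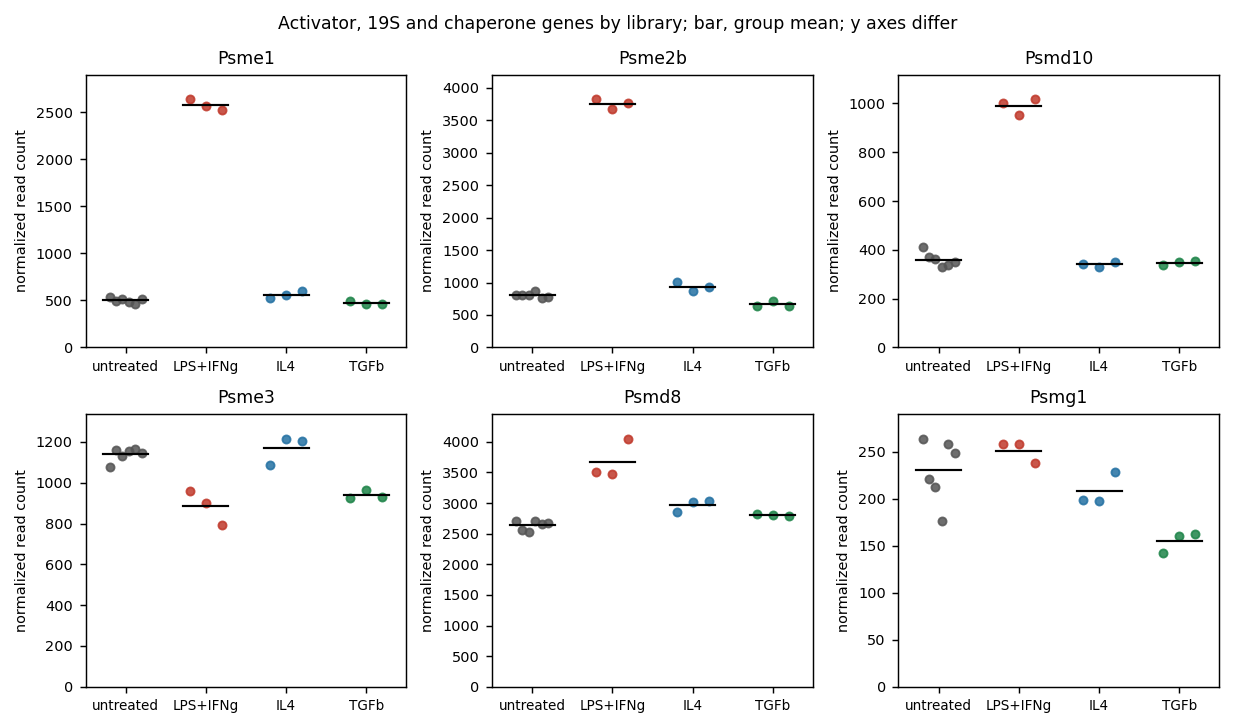
Normalized read count (y axis from 0; axes differ) of 6 activator, cap and chaperone genes by group (x axis); points are libraries and bars are group means. Psme1, Psme2b and Psmd10 are highest in the 3 LPS+IFNg libraries, Psme3 is lower with LPS+IFNg and TGFb than untreated, and Psmg1 is lowest with TGFb.

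With IL4 few members moved beyond the spread between libraries. Besides Psmb10 and Psme2b, Psmd8 rose: it was at 2522 to 2712 untreated (median 2669), 3504, 3470 and 4053 with LPS+IFNg, 2854, 3023 and 3034 with IL4, and 2815, 2798 and 2782 with TGFb. Every stimulated library exceeded every untreated one, but the test passed only for LPS+IFNg and for IL4 (0.17, limma adjusted p = 0.0199; TGFb 0.09, limma adjusted p = 0.161). The IL4 call of Psmd8 was lost under both alternative scalings and without IL4 replicate 2 or 3 (0.16 and 0.15, limma adjusted p = 0.1004 and 0.0910). Psma6, of the alpha ring, was at 986 to 1185 untreated (median 1079), 1356, 1260 and 1331 with LPS+IFNg, 967, 932 and 944 with IL4 and 863, 854 and 876 with TGFb. It fell by 0.20 with IL4 (limma adjusted p = 0.0161), a call lost without IL4 replicate 2 or 3. Psmc3ip, the recombination factor, was at 79.8 to 115 untreated (median 92.3), 91.4, 77.4 and 94.8 with LPS+IFNg, 74.7, 49.4 and 74.3 with IL4 and 70.8, 68.3 and 63.8 with TGFb. Its IL4 difference of -0.49 (limma adjusted p = 0.0250) was -0.30 without IL4 replicate 2 (limma adjusted p = 0.232). Without IL4 replicate 2, or without the 3 libraries of lowest depth, limma called 0 members lower with IL4, against 2 with all libraries (7 at an unadjusted p below 0.05).

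Set directly against each other, the stimuli gave the widest gap between LPS+IFNg and TGFb. LPS+IFNg exceeded TGFb for 41 members and was lower for 1, Psmd6 (31.9% and 30.8% of all genes), and every gene of the constitutive core was higher, by a median of 0.66. Against IL4, LPS+IFNg was higher for 31 members and lower for 2, Psme3 and Psmd6 (28.8% in each direction among all genes). IL4 exceeded TGFb for 18 members (20.7% of all genes), led by Psmb10, and limma called 0 lower (19% of all genes), also 0 at an unadjusted p below 0.05.

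Genes that work beside the proteasome were taken from 7 lists, whose counts stand beside the shares of all genes given above (29.5% higher and 29.4% lower with LPS+IFNg, 9.89% and 7.33% with IL4, 24.1% and 23.4% with TGFb). Of 17 measured partners and assembly factors outside the name pattern, 7 rose and 6 fell with LPS+IFNg, 2 fell with IL4, and 2 rose and 10 fell with TGFb. The LPS+IFNg counts lie close to the shares of all genes, and the median was -0.04. Pomp, the maturation factor of the 20S core, was at 1978 to 2096 untreated, 3192, 3091 and 3332 with LPS+IFNg, 2233, 2176 and 2140 with IL4 and 1667, 1759 and 1647 with TGFb. It rose by 0.65 with LPS+IFNg (limma adjusted p = 7.24e-11) and fell by 0.27 with TGFb (limma adjusted p = 2.23e-05), and the IL4 difference of 0.10 did not pass (limma adjusted p = 0.0928). With TGFb the ubiquitin shuttle gene Ubqln4 fell by 0.52 (3470 ± 108 to 2423 ± 27.5), and so did the genes of both deubiquitinases that dock on the cap, Usp14 (-0.40) and Uchl5 (-0.41).

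NFE2L1 is the transcription factor that raises proteasome genes when proteasome activity falls. Of the 10 genes in its list, 4 rose and 3 fell with LPS+IFNg, 1 rose with IL4, and 2 rose and 1 fell with TGFb. With LPS+IFNg this is near the shares of all genes, so the counts say little about the list. Nfe2l1 itself rose from 1615 ± 72.1 to 3884 ± 538 with LPS+IFNg (1.26, limma adjusted p = 4.82e-12) and did not pass with IL4 (1611 ± 51.1) or TGFb (1511 ± 71.9). Ddi2, the protease that releases active NFE2L1, fell from 803 ± 39.0 to 503 ± 37.0 with LPS+IFNg (-0.68, limma adjusted p = 1.22e-08). Ddi2 is also in the list of partners above, and Vcp is in both this list and that of the p97 unfoldase. The small Maf partners of NFE2L1, Mafk (0.94) and Maff (2.18), rose with LPS+IFNg. The Mafg libraries with LPS+IFNg (679 to 791) also lay above every untreated one (476 to 573). With TGFb, Maff had the largest log2 difference of the list (1.365), at 98.2 to 175 against 36.4 to 70.1 untreated. Mafk and Mafg overlapped the untreated libraries with TGFb.

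The signalling genes upstream of the inducible subunits moved with LPS+IFNg in 11 of 11 cases, 10 up and 1 down. Nlrc5 is counted both here and in the class I list that follows. Irf1 rose from 77.2 ± 7.97 to 7739 ± 1888, Stat2 from 163 ± 8.89 to 1668 ± 277 and Nlrc5, the class I transactivator, from 453 ± 38.8 to 1766 ± 93.7. In the TGFb comparison, in which Psmb9 rose and Psmb10 fell, 6 of these 11 rose, among them Jak2 (299 ± 7.18), Nlrc5 (588 ± 47.3) and Irf1 (95.0 ± 8.04; limma adjusted p = 0.0456). With IL4, in which Psmb10 rose, 4 rose, including Stat2 (214 ± 24.1) and Irf9 (89.9 ± 10.97), and Irf1 (89.8 ± 3.06) and Nlrc5 (424 ± 50.0) did not pass. The Irf1 values with IL4 (87.25 to 93.19) still lay above all untreated ones (66.02 to 85.17), as did those with TGFb.

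Of 18 class I presentation genes, 14 rose and 2 fell with LPS+IFNg, 6 rose with IL4, and 5 rose and 1 fell with TGFb. Besides Tap1, the loading factor gene Tapbp and the heavy chain gene H2-K1 rose with LPS+IFNg by 3.24 and 2.45 on the log2 scale. The cytosolic peptidases that trim the products of the proteasome moved in both directions: of 15, 3 rose and 7 fell with LPS+IFNg, 1 rose with IL4, and 1 rose and 7 fell with TGFb. Lap3, an aminopeptidase, rose with LPS+IFNg (988 ± 42.1 to 2343 ± 763), while Tpp2 (-0.33) and Blmh (-0.40) fell. With TGFb the largest fall was that of Prep (1081 ± 59.0 to 722 ± 20.3; -0.58). Lap3 was uneven, at 1942, 1865 and 3222 in LPS+IFNg replicates 1, 2 and 3. Replicate 3 was also above the others for Irf1 (9914 against 6777 and 6527) and below them for Stat2 (1350 against 1798 and 1855). For Psmb8 the LPS+IFNg libraries lay close together (3708, 3766 and 3830).

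Among 14 tested genes of ubiquitin, FAT10 and ISG15 conjugation, 10 rose and 2 fell with LPS+IFNg, 1 rose with IL4, and 2 rose and 4 fell with TGFb. Isg15, the gene of the ubiquitin-like modifier ISG15, had the largest log2 difference with LPS+IFNg (20.2 ± 4.96 to 1503 ± 165; 6.18). The genes of its conjugating enzymes Herc6 (90.7 ± 10.6 to 1281 ± 6.61; 3.81) and Ube2l6 (317.5 ± 32.0 to 2679 ± 341; 3.07) also rose. Ubd, the gene of FAT10, a tag that sends proteins to the proteasome, was not tested because it passed the minimum in too few libraries; it was at 19.4, 4.30 and 49.7 with LPS+IFNg and listed at the floor of 1 in the other 12 libraries. Of 10 genes of the p97 unfoldase and its cofactors, 4 rose and 3 fell with LPS+IFNg, for example Ubxn1 (0.33) and Nploc4 (-0.21), and 1 rose and 3 fell with TGFb. These counts with LPS+IFNg are again near the shares of all genes (median 0.03). Limma called 0 of these 10 with IL4.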

How the data were processed

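RNA was sequenced in 15 libraries, 6 untreated and 3 per stimulus, with groups taken from the labels. Per the labels' protocols, TRIZOL-extracted total RNA was made into Illumina TruSeq RNA libraries. Per the submitters' processing notes, TopHat2 2.0.3, Partek 6.6, R 3.0.2 and DESeq2 were used with build mm10. Annotation, counting rule and strand use are not given in the sources used here. The deposited values are a normalized signal: the authors scaled the reads of each library by 1 factor, and no value is below exactly 1, both inferred from the values themselves. Depth was taken from the smallest step between values and covers only the genes in the deposited table. All value columns were used (0 left out).

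For the tests, limma 3.58.1 in R 4.3.3 took log2(value + 1), used the empirical Bayes trend and had 1 fit of all 15 libraries with 6 contrasts. A gene had to reach 10 in 3 or more libraries, as 11138 of 11201 did. The call rule was a Benjamini-Hochberg adjusted p under 0.05. Folds on this scale are understated for low genes. Inducible to constitutive ratios were compared by exact permutation tests over libraries. The limma fit was tested on simulated data, where recovery was required for the larger changes only. The permutation test was not tested in this way.

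Values in every library are given for Psmb8, Psmb9, Psmb10, Psme1, Psme2, Psmb5, Psmb6 and Psmb7 and, for each stimulus, for the other members with the 2 largest and 2 smallest called differences. Of neighbouring lists, at most 4 called genes per stimulus are named, by moderated statistic, besides Nlrc5, Irf1, Tap1, Nfe2l1, Pomp and Ubd. The members and lists were chosen with earlier results of these data known. The motifs were chosen after the files were seen, and the NF-kB pattern was set aside once its matches were seen. Positions came from GENCODE M21 and promoters from RefSeq, matched by symbol. A gene of the signalling list, a marker gene and a promoter motif are not reported here.

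Alternatives covered the pseudocount (0.5, 10), the filter (none, a minimum of 50), scaling, the trend, the libraries in the fit, libraries of low depth and leaving out each library. Adding Psme2 and Psme2b together was chosen after seeing the data.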

Additional observations from a re-analysis of the deposited data

Results flagged for a closer look

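Of 51 values looked at in the 6 untreated libraries (the 48 genes and 3 ratios), 1 had a library far from the others by Dixon's criterion, which chance alone meets for about 1 group in 20. Psme3 was at 1077 in untreated replicate 1, below the other 5 untreated libraries, and this library has one of the 3 lowest depths. Even this value lay above all LPS+IFNg and TGFb libraries for Psme3.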

How the results depend on the processing

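Without the 3 libraries of lowest depth, 21 in place of 30 members fell with TGFb, and without TGFb replicate 3 alone, which is not among them, 23 did; depth and the number of libraries were not tested apart. No result reversed under any alternative run. Rescaling libraries to the same total shifted the median of all genes by -0.12 (log2) with LPS+IFNg and took the share of calls that were higher from 50.05% to 35.5% (LPS+IFNg), from 57.4% to 33.9% (IL4) and from 50.8% to 37.8% (TGFb); quantile normalization gave 38.8%, 47.4% and 45.1%.

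After rescaling, 8 members were lower with LPS+IFNg (4 before), and with IL4 1 was higher (3 before) and 8 lower (2 before). LPS+IFNg was lower than TGFb for 2 members after rescaling or quantile normalization and for 0 in a fit of those groups only (1 before). The 2 members lower with LPS+IFNg than with IL4 became 1 without the trend, in a fit of those groups only and without the 3 libraries of lowest depth; the last also left 0 lower with IL4 than untreated. The cause of these changes was not tested.

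Leaving out 1 library at a time, members lower with LPS+IFNg numbered 2 to 4, lower with IL4 0 to 3, higher with TGFb 1 to 2, lower with LPS+IFNg than with IL4 1 to 2, and lower than with TGFb 0 to 2. Those that changed a count by over 1.5 times were LPS+IFNg replicates 1, 2 and 3 and IL4 replicates 2 and 3. Log2 differences of ratios, with the value without the 3 libraries of lowest depth and then the leave-one-out range, were 1.96 and 1.85 to 1.97 (Psmb8 to Psmb5, LPS+IFNg), 3.44 and 3.52 to 3.63 (Psmb9 to Psmb6, LPS+IFNg), 0.49 and 0.54 to 0.65 (Psmb9 to Psmb6, TGFb), 2.23 and 2.19 to 2.52 (Psmb10 to Psmb7, LPS+IFNg) and 0.62 and 0.66 to 0.77 (Psmb10 to Psmb7, IL4). Adjusted exact permutation p-values then reached 0.0643, and 0.129 for Psmb9 to Psmb6 with TGFb. Fewer libraries allow fewer splits, but the 0.129, without TGFb replicate 3, is above the smallest value those splits allow: another split of the libraries was at least as extreme. The 2 ratio calls with IL4 and TGFb were lost too without any 1 LPS+IFNg library (adjusted exact p = 0.0536), whose loss changes only the shared adjustment, and Psmb9 to Psmb6 with TGFb without untreated replicate 2 (adjusted exact p = 0.0643).

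No paired analysis was possible because the replicate numbers only follow accession order and pair nothing. The edgeR and DESeq2 fits planned for recovered reads were not run.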
